A study of Mus musculus with 2 samples.

Results

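The SWI/SNF chromatin remodelling subunits described here are 10 mouse genes, Smarca2, Smarca4, Arid1a, Arid1b, Smarcb1, Smarcc1, Smarcc2, Smarcd1, Smarcd2 and Smarcd3, out of 20655 genes that could be named on the array. They were chosen by name, with earlier results of these data known. Their probes were found through the transcript accession that each probe carries, which gave 16 probes of 55664 present on both arrays. RNA came from LSK cells, the sorted fraction of blood-forming tissue that lacks lineage markers, carries Sca-1 and c-Kit and holds stem cells and multipotent progenitors. One group was adult bone marrow LSK cells at 8 weeks of age from wild type C57BL/6 mice, and the other was fetal liver LSK cells at E14.5, also wild type, with no strain label used here. Neither was transplanted. Each group had 1 single-colour Agilent array, and the labels used here do not say how many animals stand behind an array. The question is how the subunit genes of these progenitors compare between fetal and adult blood formation. Tissue, age and slide cannot be told apart, there is no replicate check and no p-value can be given.

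SWI/SNF complexes, also called BAF complexes, use ATP to slide or eject nucleosomes and so open DNA to transcription factors. Each complex holds a single ATPase, either SMARCA4 (BRG1) or SMARCA2 (BRM), with SMARCC scaffold proteins and a SMARCD subunit, and canonical BAF and PBAF also hold SMARCB1. ARID1A or ARID1B, which exclude each other, define canonical BAF, while ARID2, PBRM1, BRD7 and PHF10 define PBAF and BRD9 with BICRA or BICRAL the noncanonical complex. In blood formation, Smarcd2 is known for its role in neutrophil granule development and Actl6a for the maintenance of stem cells.

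The pair of ATPase genes gave the widest contrast among the alternative subunits compared below, so the sequence before each of their annotated starts is shown. These are the 250 bases upstream of the gene start on the gene's strand, from RefSeq on build GRCm38.p6, at chr19:26604910-26605159 on the plus strand for Smarca2 and chr9:21615919-21616168 on the plus strand for Smarca4. Capitals mark matches on either strand to GGGCGG (the GC box), CCAAT or CCGGAAG (an ETS core), none of which overlap in these sequences.
Smarca2: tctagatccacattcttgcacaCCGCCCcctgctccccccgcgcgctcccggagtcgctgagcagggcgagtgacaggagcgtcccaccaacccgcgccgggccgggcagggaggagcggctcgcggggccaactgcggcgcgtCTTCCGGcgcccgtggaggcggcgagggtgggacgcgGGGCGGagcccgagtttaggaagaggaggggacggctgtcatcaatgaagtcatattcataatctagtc
Smarca4: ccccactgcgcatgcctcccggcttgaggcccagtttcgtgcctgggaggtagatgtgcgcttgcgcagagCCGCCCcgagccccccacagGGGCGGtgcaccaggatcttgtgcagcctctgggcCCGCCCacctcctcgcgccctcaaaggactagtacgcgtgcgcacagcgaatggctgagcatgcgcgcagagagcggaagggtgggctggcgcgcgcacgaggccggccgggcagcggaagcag
The Smarca2 window held 2 GC boxes, 1 ETS core and 28 CpG dinucleotides, and the Smarca4 window 3 GC boxes, 0 ETS cores and 25 CpGs. All 10 members had an entry in the promoter table, with 11 windows because Arid1a has a second start. A GC box was in 10 of the 11 windows, the exception being Smarcc2, against 32.7% of 32851 windows of the same length before all annotated starts. CCAAT was in 0 of 11 against 33.8%, and CCGGAAG was in 2 of 11, Smarca2 and Smarcc1, against 6.91%. CpG numbers ran from 4 for Smarcd2 to 40 for Smarcc2, and the median of all windows was 6. The share of G and C ran from 56.4% for Smarcd2 to 81.6% for an Arid1a window, and the median of all windows was 52.4%. The shares over all windows were not matched for this composition. The Arid1b window may not be a promoter, because the sequence before its annotated start resembles coding sequence. Without it a GC box was in 9 of 10 windows, CCAAT in 0 and CCGGAAG in 2. These matches describe the letters in the windows and were not related to binding.

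Levels are given as the log2 processed signal minus the log2 of the array's 75th percentile, so 0 is a signal at that percentile. Values after ± are the image software's technical error. For probes with high signals this error is nearly the same for every gene, about 0.14 for a level and 0.20 for a difference. It comes from each array alone and does not cover variation between animals or repeated samples. A difference is fetal liver minus bone marrow on that scale. Levels of different probes cannot be compared with each other, since probes bind with different strength. All 16 probes were well above background on both arrays, so each member had a measured difference and none a bound. Where a gene has several probes, its value is that of the probe with the highest mean signal, and the others are given beside it.

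**Figure D1:**
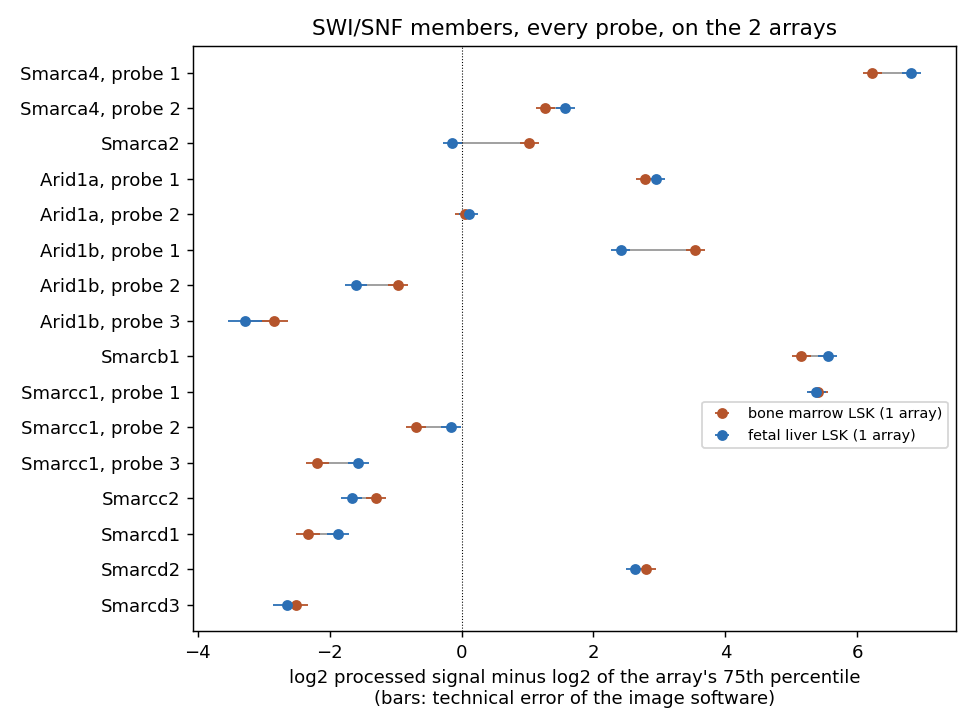
Level of each of the 16 SWI/SNF probes (log2 processed signal minus log2 of the array's 75th percentile) in bone marrow and fetal liver LSK cells, 1 array each, with bars for the technical error. Smarca2 and the first Arid1b probe show the widest separation, both with bone marrow higher, and levels should be read within a probe only.

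Bone marrow exceeded fetal liver by 2-fold or more for 2 of the 10 members, Smarca2 and Arid1b, and the reverse held for 0. Both values lay within a technical error of the 2-fold line. Over all 13374 genes with a value, 8.17% had such an excess in bone marrow and 6.74% in fetal liver. By probe, 2 of the 16 had a bone marrow excess of that size and 0 a fetal liver excess, against 7.14% and 5.98% of all probes with a value. At 1.5-fold, Smarca4 was the 1 member higher in fetal liver, where the share of all genes was 17.6%. At the brightest probe the other 8 members lay between a difference of -0.37 for Smarcc2 and 0.59 for Smarca4. Of the members, 4 differences were above zero and 6 below, against 7723 and 5651 of all genes. The median difference of the members was -0.09, beside 0.11 for all genes. Measured from that median of all genes, 3 members lay within their own technical error of it.

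The gene-wide scale depends on how the arrays are matched. Scaling by the spike-in controls, synthetic RNAs added in equal amount to each sample, lowered every member difference by 0.27 and moved the median of all genes from 0.11 to -0.17. It left the same 2 members past 2-fold in bone marrow and 0 in fetal liver, where the background was 11.9% and 4.13%.

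**Figure D2:**
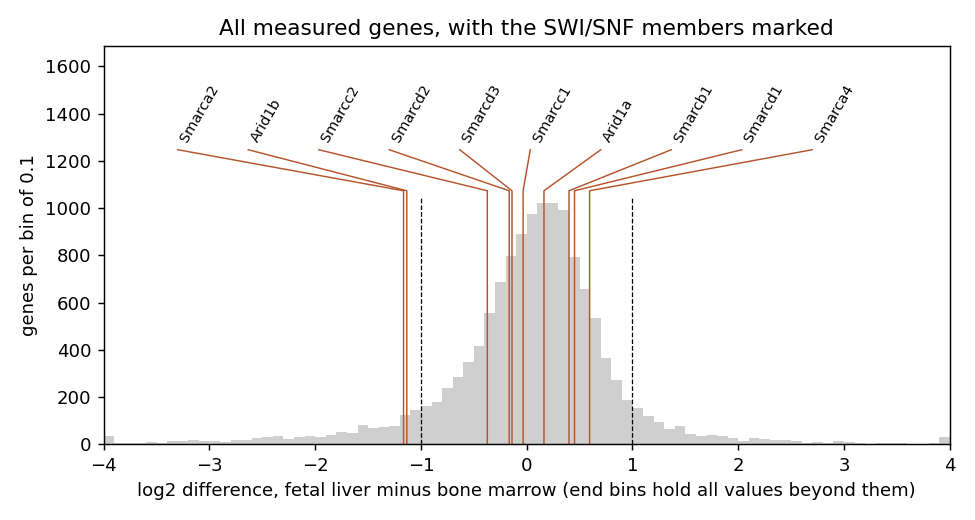
Number of genes per 0.1 bin of the log2 difference, fetal liver minus bone marrow, for all 13374 genes with a value, with lines at the 10 SWI/SNF members and dashed lines at 2-fold. Smarca2 and Arid1b sit in the lower flank, past 2-fold, and the other 8 members sit in the body of the distribution.

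Smarca2, the gene for the BRM ATPase, had a bone marrow level of 1.02 ± 0.14 and a fetal liver level of -0.14 ± 0.15, at signals of 364 and 122. Bone marrow was the high array. The difference was -1.16 ± 0.21, or 2.24-fold higher in bone marrow. Of all genes, 6.46% had a difference as low or lower. Smarca2 had a single probe, so no second probe was there to set beside it. Whether the transcript this probe was designed on starts at the window shown above was not tested. Under normexp background correction, which adds an offset to every signal, it was -0.86, short of 2-fold.

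Smarca4, the gene for the BRG1 ATPase, was at 6.22 ± 0.14 in bone marrow and 6.82 ± 0.14 in fetal liver. Its second probe, designed on another transcript accession of the gene, was at 1.27 ± 0.14 and 1.57 ± 0.14. Fetal liver was the higher array for both probes. The differences were 0.59 ± 0.20 and 0.30 ± 0.20, and the first is a 1.51-fold excess in fetal liver. It was the highest of the members, with 17.2% of all genes at or above it, so it was no extreme value on these arrays. Spike-in scaling left it at 0.32.

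Set against each other, the ATPase genes differed by 1.76 ± 0.29, Smarca4 minus Smarca2, which is a 3.39-fold shift of the Smarca4 to Smarca2 signal ratio towards Smarca4 in fetal liver. Any scaling of an array by a single constant cancels in this value. With the second Smarca4 probe it was 1.47. Normexp correction gave 1.32, the lowest of the processing alternatives.

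The ARID subunits bind DNA and set the type of complex. Arid1a was at 2.78 ± 0.14 in bone marrow against 2.95 ± 0.14 in fetal liver, a difference of 0.16 ± 0.20, with the other probe at 0.06 ± 0.21. Neither exceeded its technical error, and spike-in scaling turned the sign to -0.11.

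Arid1b was at 3.55 ± 0.14 in bone marrow and 2.41 ± 0.14 in fetal liver by its brightest probe, signals of 2089 and 713. The other probes were at -0.96 and -1.60, and at -2.84 and -3.28, in the same order of tissues. Bone marrow was the high array for all 3 probes, but they disagreed on size. The differences were -1.13 ± 0.20, -0.64 ± 0.22 and -0.44 ± 0.34, so the 2.19-fold excess in bone marrow rests on the brightest probe. The mean over the probes was -0.74, short of 2-fold. By its brightest probe, 6.77% of all genes were as low or lower.

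Arid1a minus Arid1b was 1.30 ± 0.29, a 2.46-fold shift of the signal ratio towards Arid1a in fetal liver. Across the 6 combinations of their probes the value ran from 0.50 to 1.30, all positive. The lowest value under another processing was 0.85.

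**Figure D3:**
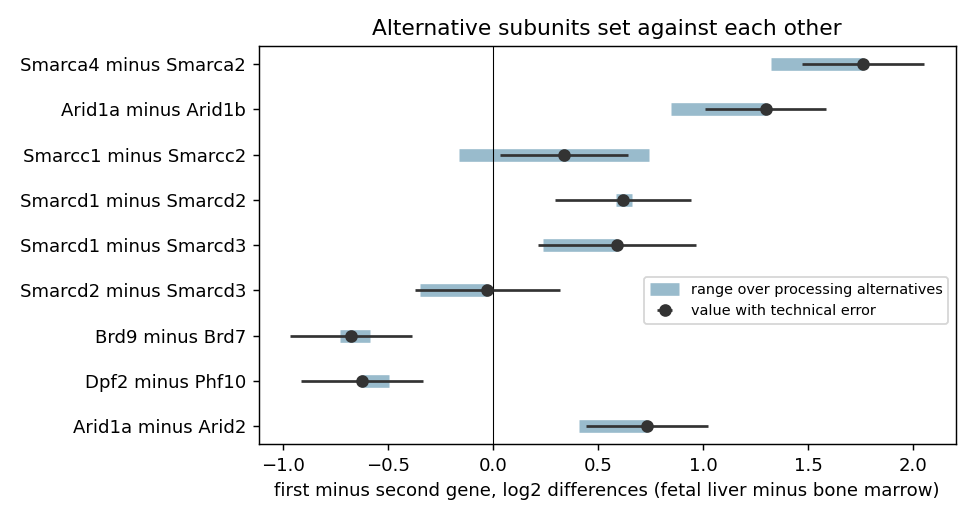
Difference between the fetal liver minus bone marrow log2 differences of paired genes, first minus second, with the combined technical error (black bars) and the range over the processing alternatives (wide bars). Smarca4 minus Smarca2 at 1.76 and Arid1a minus Arid1b at 1.30 lie farthest from zero, and the range of Smarcc1 minus Smarcc2 crosses zero.

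Of the core genes, Smarcb1, a subunit of canonical BAF and PBAF known as a tumour suppressor, was at 5.15 ± 0.14 in bone marrow and 5.55 ± 0.14 in fetal liver. The difference was 0.40 ± 0.20 and fell to 0.13 under spike-in scaling. Fetal liver stayed the higher array under each processing tried.

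The SMARCC genes encode the scaffold proteins around which the core assembles. Smarcc1 was at 5.41 ± 0.14 in bone marrow and 5.37 ± 0.14 in fetal liver by its brightest probe, signals of 7597 and 5558, a difference of -0.03 ± 0.20. The other probes read -0.69 and -0.16, and -2.19 and -1.57, differences of 0.53 ± 0.21 and 0.62 ± 0.24. The brightest probe thus put the arrays level while both dimmer probes put fetal liver higher, and no single value describes Smarcc1 here. The mean over its probes was 0.37.

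Smarcc2 had a single probe, at -1.29 ± 0.15 in bone marrow and -1.67 ± 0.16 in fetal liver, from signals of 72.9 and 42.2. Bone marrow was higher, by 0.37 ± 0.23 on the log2 scale, and normexp correction brought the difference to -0.04. Smarcc1 minus Smarcc2 was 0.34 ± 0.30 and ran from -0.16 to 0.74 over the alternatives, so the direction of that shift was not settled.

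The SMARCD subunits link the core to transcription factors, and their genes differ in tissue use. Smarcd2 was at 2.80 ± 0.14 in bone marrow against 2.63 ± 0.14 in fetal liver, a difference of -0.17 ± 0.20 within its technical error. Smarcd1 was at -2.33 ± 0.18 and -1.87 ± 0.17, a difference of 0.45 ± 0.25. Smarcd3, best known from heart muscle, was at -2.51 ± 0.19 and -2.65 ± 0.20, a difference of -0.14 ± 0.28 that turned to 0.06 under normexp correction.

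Signals of Smarcd1 were 35.7 and 36.6 and those of Smarcd3 31.3 and 21.3, near the lowest signals called well above background, 12.4 in bone marrow and 9.82 in fetal liver. For 13 array probes printed many times with signals of 10 to 50, the log2 difference of single spots had an SD of 0.33. This was larger than the software's error for either gene. The SD was 0.20 at signals of 50 to 100, 0.11 at 100 to 1000 and 0.06 above 1000. At signals above 100 it lay below the software's error, which was 0.20 for bright members such as Smarca4 and Smarcd2. A bright member's difference within the software's error can therefore still exceed the spread of repeated spots. That spread covers repeated spots within each array only and does not measure variation between samples. Smarcd1 minus Smarcd2 was 0.62 ± 0.32, Smarcd1 minus Smarcd3 0.59 ± 0.37 and Smarcd2 minus Smarcd3 -0.03 ± 0.34. None of these reached 2 technical errors.

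Neutrophil markers, given here because Smarcd2 acts in that lineage, were 2-fold or more higher in bone marrow for 7 of 11 genes, against 8.17% of all genes. Their summed signal was 823 times the array's 75th percentile in bone marrow and 663 in fetal liver, of which Mpo alone gave 657 and 545. Erythroid markers were 2-fold or more higher in fetal liver for 4 of 7 measured genes, against 6.74% of all genes, with sums of 122 and 831, of which Hbb-bt gave 94.9 and 755. Mitosis genes were all 14 higher in fetal liver, against 7723 of all 13374 genes, with a median of 0.88. Of the 14, 5 were at least 2-fold higher, against 6.74% of all genes. Under spike-in scaling 13 of 14 stayed higher, against 4970 of 13350 genes, and 0 were at least 2-fold, against 4.13%. The part of any of these in the subunit values was not tested, and in a sorted bulk sample a change in the share of a cell type and a change in RNA per cell cannot be told apart. Kit, a sort marker, differed by 0.01 ± 0.20, and Ly6a, which encodes Sca-1, by -2.28 ± 0.20. All 11 LSK markers were above background on both arrays. So were 2 of 7 B cell genes, Cd79b and Vpreb1, while Pax5 was not on either, and the summed signal of that list was 23.8 times the 75th percentile in bone marrow and 30.4 in fetal liver. Of 9 hepatocyte genes, 5 were above background in bone marrow and 4 in fetal liver, among them Trf, Afp and Apoa2, while Alb was on neither. Their sums were 83.4 and 38.4, of which Trf gave 69.6 and 28.9. Of 9 T and NK cell genes, 5 were above background on each array. Their sums were 78.1 in bone marrow and 27.4 in fetal liver, of which Nkg7 gave 65.9 and 12.2. Of 8 macrophage genes, 5 were above background in bone marrow and 3 in fetal liver. Their sums were 28.1 and 34.2, of which Csf1r gave 27.6 and 33.8.

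The rest of the complex was read from a list of 18 further subunit genes, of which 14 were above background. None of the 14 was at least 1.5-fold different, against 32.5% of all genes at that size in either direction. Under spike-in scaling 3 of the 14, Arid2, Bicral and Dpf1, passed that size towards bone marrow, against 24.0% of all genes. Scaling by the median of spike-in differences gave 5, against 27.0% of all genes. The 75th percentile over detected probes also gave 3, against 17.2%. The median difference of the 14 was -0.15, beside -0.09 for the members. Of the 14 differences, 6 were above zero and 8 below, against 7723 and 5651 of all genes. Bcl7a, a subunit shared by the complexes, was highest at 0.57 ± 0.21, and Arid2, the ARID protein of PBAF, was lowest at -0.57 ± 0.21, with another Arid2 probe at -0.03.

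Among the subunits particular to PBAF, Brd7 and Phf10 differed by 0.47 ± 0.20 and 0.40 ± 0.20. Pbrm1 was at 0.03 ± 0.20 and, by its other probe, 0.10 ± 0.24, and Arid2 was at -0.57 by its brightest probe and -0.03 by another. Of the noncanonical complex, Brd9 differed by -0.20 ± 0.20 and Bicral by -0.52 ± 0.21, and Bicra was below the background limit on both arrays. Brd9 minus Brd7 was -0.67 ± 0.29 and kept its sign under each processing tried, as did Dpf2 minus Phf10 at -0.62 ± 0.29 and Arid1a minus Arid2 at 0.73 ± 0.29. Over the 4 combinations of probes the last value ran from 0.09 to 0.73.

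Actl6a, the actin-related subunit of dividing progenitors, differed by 0.27 ± 0.20 and was at 0.00 under spike-in scaling. Its neuronal counterpart Actl6b was below the background limit on both arrays, as were Dpf3 and Ss18l1, so those pairs could not be compared. Ss18 itself, from 2 probes, differed by -0.31 ± 0.20 and -0.08 ± 0.20. Dpf1, named because its probes disagreed, differed by -0.50 ± 0.28 by the brighter probe, whereas the other was not well above background in bone marrow and bounded the fetal liver excess at 2.21-fold or more. The brighter probe had signals of 40.2 and 21.2, and the other 8.98 and 20.4.

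**Figure D4:**
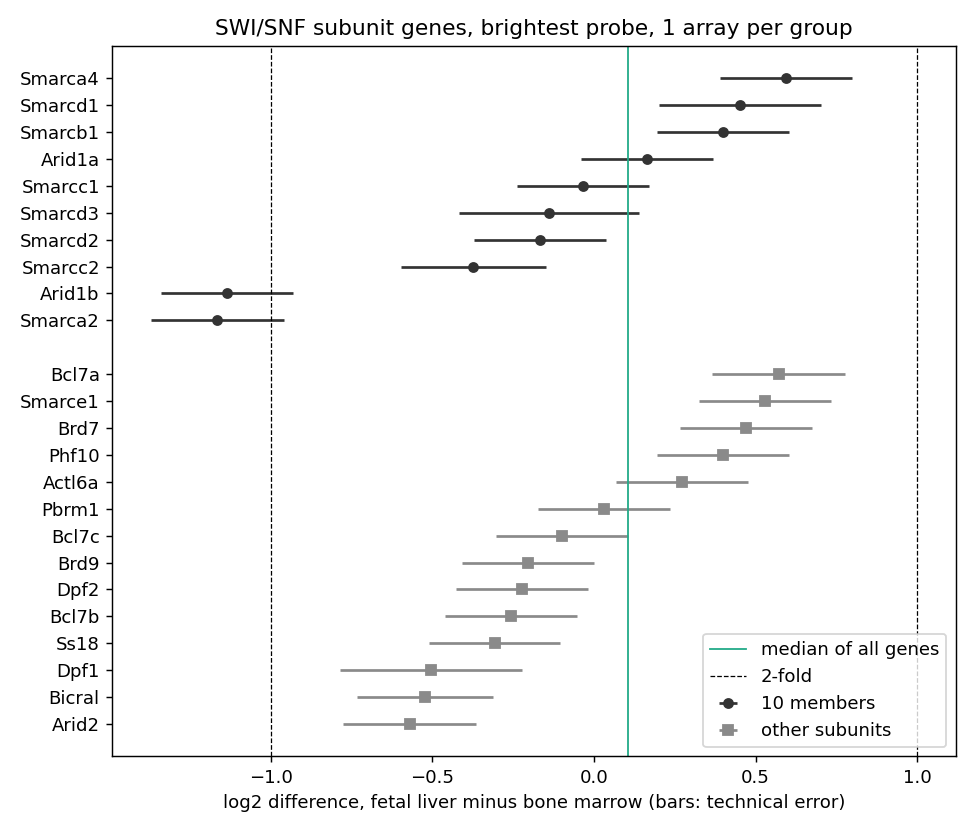
Log2 difference, fetal liver minus bone marrow, of the 10 members (circles) and the 14 measured further subunits (squares), brightest probe of each gene, with technical error bars, the median of all genes (0.11, solid line) and 2-fold (dashed lines). Smarca2 at -1.16 and Arid1b at -1.13 lie past 2-fold, and the further subunits lie between -0.57 and 0.57.

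Signs held under each processing tried for 7 members: positive for Smarca4, Smarcb1 and Smarcd1, and negative for Smarca2, Arid1b, Smarcc2 and Smarcd2. They changed for Arid1a under spike-in scaling, for Smarcc1 with the mean over probes and for Smarcd3 under normexp correction, all from values within the technical error.

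**Figure D5:**
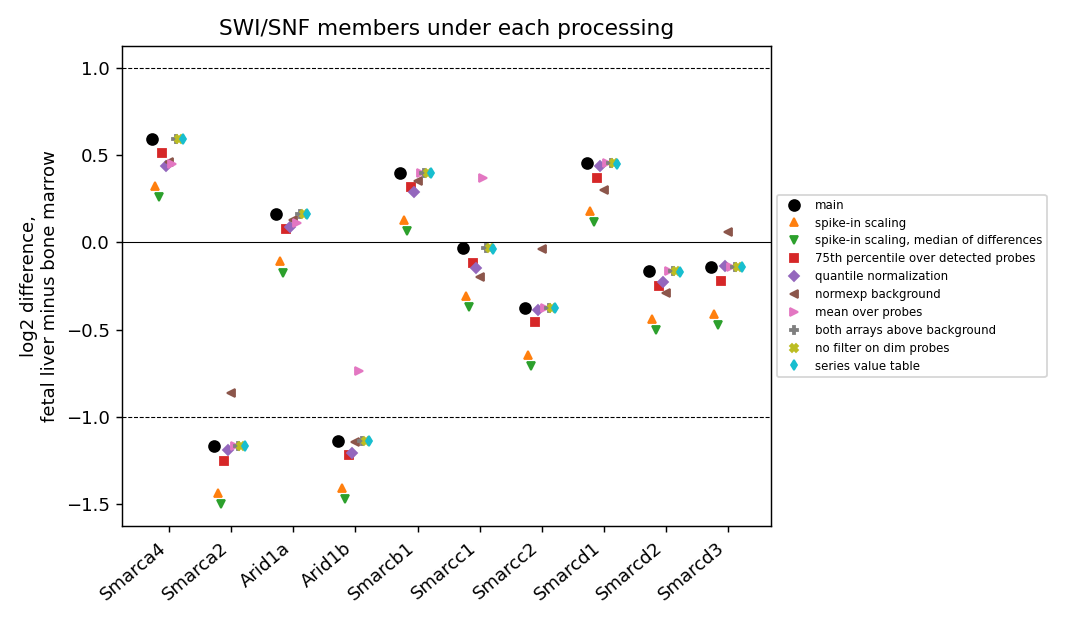
Log2 difference, fetal liver minus bone marrow, of each member under the main processing (black circles) and each alternative, with dashed lines at 2-fold. Smarca2 and Arid1b stay the lowest members throughout, from -1.50 to -0.86 and from -1.47 to -0.74, and the spike-in scalings give the lowest value of every member.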

How the data were processed

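Per the file headers, Agilent Feature Extraction 10.7.1.1 produced the deposited spot intensity values, linear signals corrected for background and spatial trend within each array and not scaled between arrays. Per the labels' protocols, 20 ng of RNA was amplified and labelled with Cy3. The authors' deposited series table gives each probe a linear ratio. It matched the processed signal over a fixed constant, 178.6 (bone marrow) or 133.9 (fetal liver), within 0.1% for 99.99% of probes printed once. Its column medians were 0.0589 and 0.0604. It is neither logged nor centred, and the choice of constants is not stated in these sources.

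Spots marked as outliers were left out (137 and 122), repeated spots were averaged, and no spot was saturated. Levels were log2 signals minus the log2 75th percentile, which was 178.9 in bone marrow and 134.0 in fetal liver. Of the 55664 probes, 47.4% and 46.4% were well above background, and 27226 were named through RefSeq accessions without versions (GRCm38.p6, names only, since the array design is on mm9). A gene took its brightest probe. A probe dim on 1 array gave a bound against the lowest signal well above background there, or its own signal if higher. Named were all members, further subunits by size or as extremes and undetected genes, and listed pairs. With 1 array per group there was no test across samples. Normexp (limma 3.58.1, offset 50) used median spot signals, the mean not being among the columns used. The calculation was tested on simulated data. Members, lists and pairs were chosen with earlier results of these data known. Python 3.11.15 and R 4.3.3 were used.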

Additional observations from a re-analysis of the deposited data

How the results depend on the processing

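Results were recomputed under 9 other processings, of which 1, the spike-in scaling by the median of differences, was chosen after seeing the data, and at 1.5-fold. Of 90 recomputed member differences, 67 moved by less than their technical error and 23 moved further. Of the 23, 9 and 10 were under the spike-in scalings, and no difference past 2-fold changed sign. Many of the 67 could not move. Every member probe was well above background on both arrays, so processings that change only the treatment of dim probes returned the main value. The series table holds nearly the same scaled signals, and the mean over probes cannot change the 6 members with a single probe. The count of members with a 2-fold or larger bone marrow excess was 2 and fell to 1 with the mean over probes (Smarca2 left) and to 1 with normexp correction (Arid1b left). At 1.5-fold, 1 member (Smarca4) was higher in fetal liver in place of 0. The members' median of -0.09 became -0.36 under spike-in scaling and -0.42 with the median of differences, and that of the further subunits became -0.42 and -0.49 from -0.15, while the median of all genes became -0.17 and -0.23. Smarca4 minus Smarca2 was 1.32 under normexp correction. No paired analysis was possible because each group has 1 array, and no replicate could be left out. Signal over background limits Smarcd1, Smarcd3, Smarcc2 and the dim probes of Arid1b and Smarcc1.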

Other observations

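Other ATP-dependent remodeller families were read from the same arrays. Among INO80 and SRCAP genes, 1 of 16 measured had a fetal liver excess of 2-fold or more and 0 a bone marrow excess, beside 6.74% and 8.17% of all genes. It was Actr6, an actin-related SRCAP subunit, at 1.40 ± 0.20, and the lowest was Ino80d at -0.79 ± 0.20, or -1.07 under spike-in scaling, where it passed 2-fold towards bone marrow. The list's median difference was 0.07. Of 10 further SNF2-type ATPase genes, 1 passed 2-fold towards fetal liver, Hells, which supports DNA methylation, at 1.15 ± 0.21, or 0.88 under spike-in scaling. Atrx was lowest of that list at -0.27 ± 0.21, with its other probes at 0.02 and -0.73. The list's median was 0.39. None of 9 ISWI genes passed 2-fold (median 0.21), from Baz2b at -0.27 ± 0.20 to the ATPase Smarca5 at 0.68 ± 0.20. None of 17 CHD and NuRD genes passed it either (median 0.13), from Chd2 at -0.86 ± 0.20 to Gatad2a at 0.72 ± 0.20. Under spike-in scaling Chd2 was at -1.13. Its other probes with a value were at -0.26 and 0.05, so the low Chd2 value rests on the brightest probe. The other Gatad2a probes were at 0.60 and 0.25.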
